A study of Rattus norvegicus with 30 samples.

Results

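The change of the αSyn 3K response between 6 and 19 d after transduction was measured as a difference of differences. The difference between αSyn 3K (3K) and empty vector (EV) cultures at day 6 was subtracted, gene by gene, from the same difference at day 19. It was taken on log2(normalized count + 1) from 20 of 30 RNA-Seq libraries, 5 in each of the 4 groups EV day 6, 3K day 6, EV day 19 and 3K day 19. A gene was tested where 5 or more of the 30 libraries had a normalized count of 10 or more, which kept 12911 of 32883 genes in the table and left out the rows of both vectors. Below, the 3K effect is the log2 difference 3K minus EV at a day, and its growth is the effect at day 19 minus the effect at day 6, so that a positive growth means that 3K moved up against EV with time.

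All cultures were primary cortical neurons from embryonic Sprague Dawley rats and were transduced on day 5 in vitro with AAV9, a virus that carries genes into neurons. EV cultures received AAV9 without an insert, and 3K cultures received AAV9 that expresses human αSyn with 3 glutamate-to-lysine mutations from the CAG promoter, which is active in most cell types and not only in neurons. Both treatments shared the virus serotype, the day of transduction and the days of collection, and the labels add PBS to the name of every group. Whether the 5 replicates of a group were separate cultures is not stated, so that p-values measure the spread between libraries, which may be technical.

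αSyn is a presynaptic protein that binds vesicle membranes, and the 3K form amplifies a familial Parkinson disease mutation and associates with membranes more strongly. Cultured cortical neurons mature over weeks, when synaptic genes rise and sterol synthesis declines, while the glia among them divide and mature. A treatment that acts in such cultures is therefore seen on top of a moving baseline, and a difference of differences asks whether the response itself moved.

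Recovered reads ranged from 4747019 to 7035869 per library. Reads of the αSyn 3K vector had a normalized count of 4203 ± 372 (SD, n = 5) in 3K at day 6 and 24755 ± 2376 (SD, n = 5) at day 19, a 5.89-fold higher mean, against 135 ± 34.4 and 211 ± 32.9 in EV, so that the amount of transgene RNA differed between the days compared. Summed neuronal markers (8 of 8 tested) overlapped between treatments at day 6, at 23234 to 26009 in EV and 24219 to 25590 in 3K, but not at day 19, at 25345 to 26570 in EV and 23541 to 24298 in 3K. Summed markers of astrocytes (8 tested) and of the oligodendrocyte lineage (7 tested) overlapped at both days. At day 12 the astrocyte sums did not overlap, at 16774 to 17339 in EV and 14848 to 16243 in 3K. The day 19 astrocyte sum joined markers of opposite direction, such as Gfap (mean 4555 in EV, 6588 in 3K) and Aldoc (4905 and 3428). None of the microglial markers passed the filter, their sum stayed at or below 3.12 in every library, and C1qa was at 0 throughout, as was the endothelial marker Cldn5. In bulk RNA, fewer cells of a type and less RNA per cell cannot be told apart.

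The growth of the 3K effect passed the threshold in 195 of 12911 genes (1.51%; limma, two-sided, adjusted p under 0.05), of which 95 (0.736%) grew upward and 100 (0.775%) downward. At an unadjusted p under 0.05 there were 1674. The upward genes moved further, with a median growth of 0.59 on the log2 scale against -0.34 in the downward genes and 0.00 over all genes tested. Of the upward genes 18 and of the downward genes 4 moved by more than 2-fold, against 263 of 12911 tested. Upward genes were also less abundant, with a median over genes of the mean normalized count of 294 against 1104 in downward genes and 162 over all genes tested, and 12 upward and 3 downward genes had a mean under 50 (0.388% and 0.0971% of 3091 such genes). Estimated from the day 6 and day 19 libraries alone, without the day 12 libraries that share in the estimate of the spread, 104 genes passed (55 upward, 49 downward), of which 102 were among the 195. With libraries scaled to equal totals the split was 123 upward and 72 downward.

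Few of the genes that grew were called at day 6, though a larger share than of all genes tested (29 of 12911, 0.225%). Their effect at day 6 lay within 0.1 of 0 in 45 upward and 70 downward genes, against 8047 of 12911 tested. That share was smaller in upward genes than in all tested, and larger in downward genes. It had the opposite sign to the effect at day 19 in 71 upward and 63 downward genes, against 6064 of all tested. Their median 3K effect at day 6 was -0.07 in upward genes and 0.03 in downward genes, and 3 upward and 3 downward genes were called higher in 3K at day 6 (0.139% of all genes) and 1 upward gene lower (0.0852%). At day 12 the medians were 0.09 and -0.07. By then 12 of the 95 were called higher (0.178% of all genes) and 10 of the 100 lower (0.256%; both directions, 0.434%). At day 19 the medians were 0.57 and -0.30, and 91 were called higher (3.78% of all genes) and 93 lower (4.08%; both directions, 7.86%). Every 3K library lay above every EV library at day 19 in 79 of the 95 upward genes, against 3.1% of all genes tested, and below in 82 of the 100 downward genes, against 3.56%. At day 6 the groups stood apart in this way in 7 upward genes above and 3 below, and in 6 downward genes above and 2 below (0.767% and 0.527% of all genes). At day 12 it was 21 above and 1 below, and 2 above and 28 below (1.05% and 1.57%). These day 6 and day 19 values enter the growth itself and describe it without testing it.

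**Figure D1:**
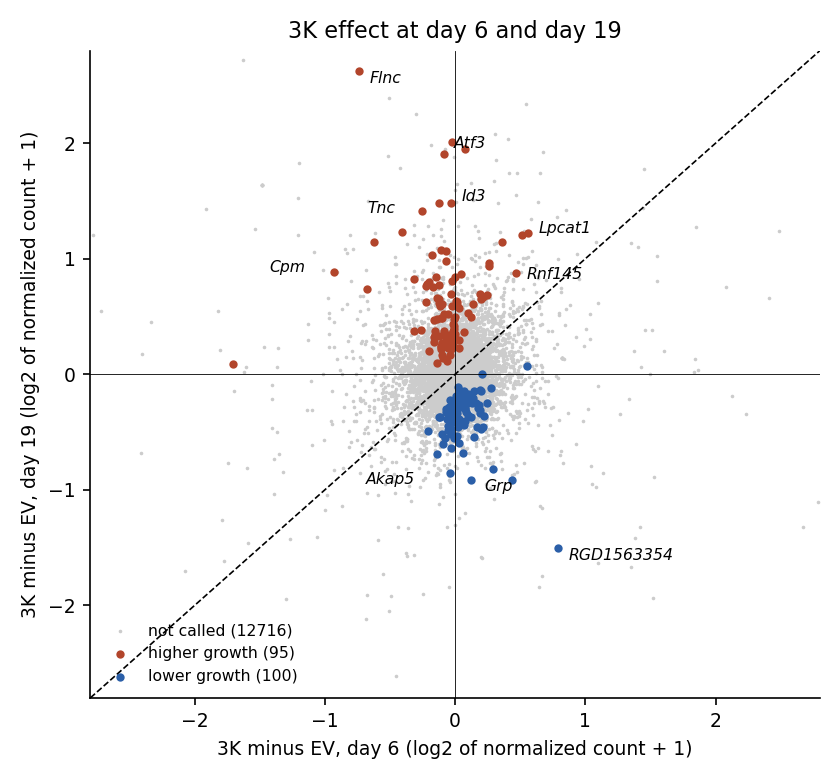
The 3K effect at day 19 (y axis) is plotted against that at day 6 (x axis), both as log2 differences of normalized count + 1, for all genes tested, with the 95 genes of upward growth in red, the 100 of downward growth in blue and equal effects on the dashed line (12 genes, none of them called, lie outside the axes). Most coloured points stand near 0 on the x axis, as do most genes tested, and away from 0 on the y axis. Lpcat1 and Rnf145 stand above 0 on both.

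Most of this growth fell in the second interval. Over the upward genes the median change of the 3K effect was 0.16 up to day 12 and 0.41 thereafter. In the downward genes it was -0.12 and -0.24. The effect at day 12 lay between those of days 6 and 19 in 86 of 95 and 89 of 100, against 5211 of 12911 tested. Genes called for a wide gap between days 6 and 19 tend to hold day 12 inside it, so this count does not bear on the timing. Both intervals share the day 12 libraries with each other and the day 6 or day 19 libraries with the main comparison. Between day 12 and day 19, 70 genes passed the test (0.542%), 43 upward (0.333%) and 27 downward (0.209%), of which 28 and 19 were also called from day 6 to day 19 in the same direction. This count was 110 without 3K day 19 replicate 4, and 35, 38 and 44 without 3K day 19 replicates 3, 5 and 1, and 41, 43 and 45 without EV day 19 replicates 2, 4 and 3. Between day 6 and day 12 limma and edgeR called 0 genes and DESeq2 called 4, with 636 at an unadjusted p under 0.05 in limma.

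The difference of differences also compares how each treatment changed with time. Over the downward genes, the median change from day 6 to day 19 was 0.66 in EV and 0.29 in 3K. Of these 100, 76 rose in EV (32.9% of all genes tested), 64 rose in both treatments but by less in 3K, 18 fell in both, and 8 rose in EV and were not called in 3K. Over the upward genes the medians were -0.18 in EV and 0.40 in 3K. Of these 95, 48 fell in EV (32.2% of all genes tested) and 24 fell in both, 27 rose in both, 20 rose in 3K with no call in EV, and 13 fell in EV with no call in 3K. In 11 genes EV fell while 3K rose, among them Vim, Nqo1, Chac1, Nr4a2, Rnf145 and Tmem50b, and in 4, Klhl2, Camkv, Zfp46 and Ap2a2, EV rose while 3K fell. Over all 12911 genes tested, 3635 rose in both treatments and 3502 fell in both, shares close to those of the upward genes. A further 606 rose and 650 fell in EV with no call in 3K, and 508 rose in 3K with no call in EV. In all, 65.1% of genes tested were called in EV and 63.4% in 3K between these days. Both changes are parts of the growth and are given as a description.

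**Figure D2:**
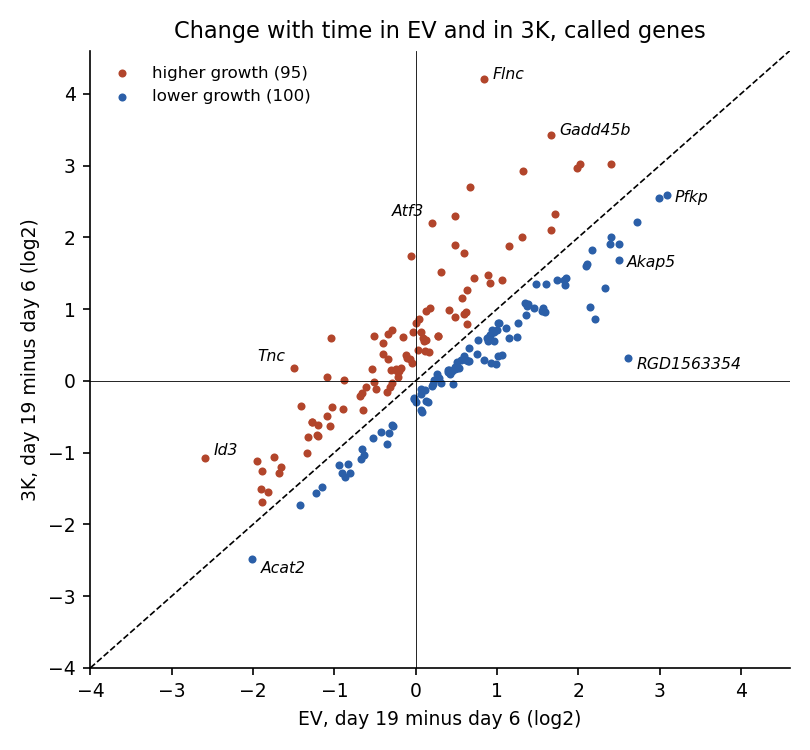
The change from day 6 to day 19 in 3K (y axis, log2) is plotted against that in EV (x axis, log2) for the 195 called genes, with upward growth in red, downward growth in blue and equal changes on the dashed line. Most blue points lie to the right of 0 and under the line, since 76 of the 100 rose in EV, and Acat2 lies at the lower left, having fallen in both treatments.

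A few genes that already differed at day 6 moved further from EV. Lpcat1 encodes a lysophosphatidylcholine acyltransferase, which remakes phosphatidylcholine in membranes. Its normalized count at day 6 was 653, 690.2, 661, 695 and 650.4 in the EV libraries and 1027, 1006, 1009.8, 928 and 974 in the 3K libraries. By day 19 these were 317, 314, 337, 323 and 345 in EV and 705, 812, 825, 713 and 779 in 3K. All 3K libraries stood above all EV libraries at both days, and the gap widened as EV fell by more than 3K. The 3K effect was 0.56, 0.72 and 1.22 over the 3 days, and the growth was 0.66 (SE 0.07, adjusted p = 5.2e-06), with the smallest adjusted p of all genes tested.

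Rnf145 encodes a sterol-sensing ubiquitin ligase of the endoplasmic reticulum that restrains cholesterol synthesis. It was at 647, 695, 699.6, 650.5 and 739 in EV and 975, 903, 856, 960.3 and 1053 in 3K at day 6. The day 19 values were 615, 579.9, 585, 578 and 539 in EV and 1088, 1141, 1006, 966 and 1123 in 3K. The groups did not overlap at either day. Its 3K effect was 0.47 at day 6, 0.46 at day 12 and stood at 0.88 at day 19, a growth of 0.41 (SE 0.08, adjusted p = 0.0029).

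Rgs4, which speeds the shut-off of G-protein signals, was at 1492, 1499, 1544, 1495 and 1486 in EV and 1769, 1750.1, 1761, 1909.9 and 1706 in 3K at day 6. At day 19 the values were 1615, 1624, 1689, 1538 and 1735 in EV and 2493, 2761, 2487, 2775 and 2711 in 3K. Again the groups were apart at both days, and here 3K rose while EV rose by less. The effect was 0.24, then 0.39 and then 0.69 on days 6, 12 and 19, with a growth of 0.45 (SE 0.06, adjusted p = 3.2e-05). Lpcat1, Rnf145 and Rgs4 were the 3 genes called at day 6, at day 19 and in the growth. The transmembrane gene Tmem50b, with no call at day 6 (effect 0.14), grew by 0.47 (SE 0.05, adjusted p = 6.9e-06), as EV moved from 1086 ± 46.9 to 1003 ± 24.9 (SD, n = 5) and 3K from 1196 ± 43.7 to 1534 ± 90.3 (SD, n = 5).

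**Figure D3:**
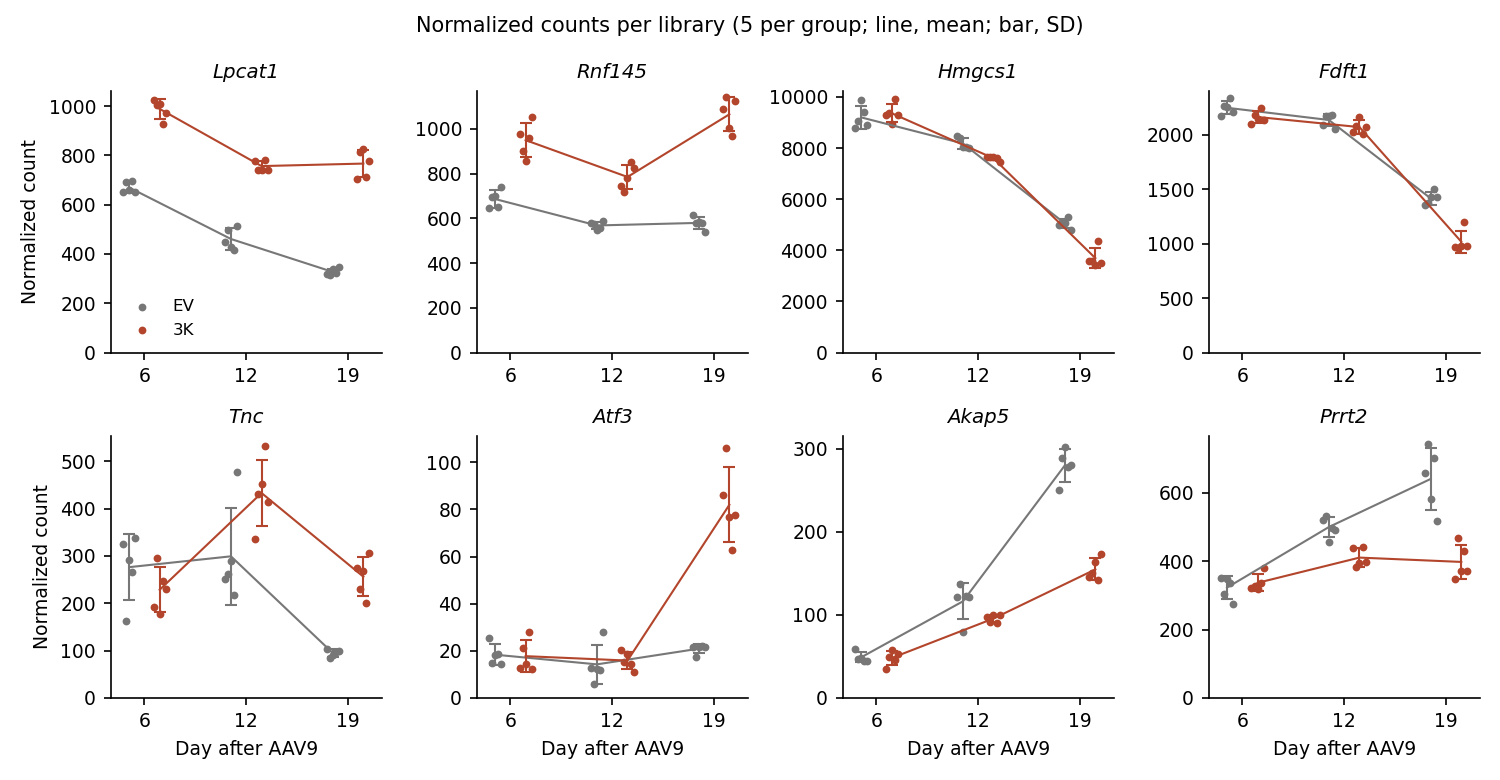
Normalized counts (y axis, from 0) of 8 genes are plotted for the 5 EV libraries (grey) and 5 3K libraries (red) of each day after AAV9 (x axis, days 6, 12 and 19 drawn at equal steps), with lines through the means and bars of 1 SD. Lpcat1 and Rnf145 are apart at every day, Hmgcs1, Fdft1, Tnc, Atf3, Akap5 and Prrt2 overlap at day 6 and are apart at day 19.

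Other genes that differed at day 6 lost their difference. Spata2L was higher in 3K at day 6, at 199 ± 14.9 against 137 ± 21.3 in EV (SD, n = 5), and its effect passed from 0.55 to 0.07 at day 19, a growth of -0.48 (SE 0.12, adjusted p = 0.03). Plppr4, a phospholipid phosphatase-related protein of glutamatergic synapses, passed from 0.21 to 0.00 (-0.21 (SE 0.05, adjusted p = 0.011)), and the galactosyltransferase gene B3galt2 from 0.27 to -0.12 (-0.39 (SE 0.08, adjusted p = 0.0089)). Lcat, which esterifies cholesterol on lipoproteins, was the 1 gene of the 195 that was called lower at day 6, with a normalized count of 2.45 ± 1.63 in 3K and 9.92 ± 3.48 in EV (SD, n = 5), and its effect passed from -1.71 to 0.09 at counts close to the filter.

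Of the genes of cholesterol synthesis and uptake, 11 of 27 grew downward, against 0.775% of all genes tested. That share, with 0.736% upward, stands beside the count of every list below. A single call in a list is given for its gene and not as a result about the list. Cells make cholesterol from acetyl-CoA through mevalonate, squalene and lanosterol, and SREBP2 transcribes these genes when sterols in the endoplasmic reticulum are low. None of the 27 grew upward, with a median growth of -0.29 against 0.00 over all genes tested, and 25 of 27 were negative. The list median of the 3K effect was -0.01 at day 6, -0.03 at day 12 and -0.28 at day 19. Among the 11 were the early enzymes Acat2, Hmgcs1 and Mvd, the squalene synthase Fdft1, the lanosterol and late enzymes Cyp51, Msmo1, Nsdhl, Sc5d and Dhcr7, and Insig1, which holds SREBP in the endoplasmic reticulum. Over the alternatives the count ranged from 7 to 16. It was 16 without 3K day 19 replicate 4, and 7 without EV day 6 replicate 1, without 3K day 6 replicate 4, without 3K day 19 replicate 3, with no filter, with equal totals and with the libraries of days 6 and 19 alone.

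Hmgcs1 makes HMG-CoA, the substrate of the rate-limiting step. At day 6 it was at 8775, 9046, 9870.2, 9398 and 8920.4 in EV and 9277, 9380.3, 8957, 9922 and 9282 in 3K. On day 19 the counts were 4992, 5089.9, 5086, 5302 and 4802 in EV and 3592, 3588, 3422, 4379 and 3487 in 3K. The groups were mixed at day 6, and at day 19 every 3K library was under every EV library, with 3K replicate 4 the highest of its group. Hmgcs1 fell with time in both treatments, by 0.86 in EV and by 1.35 in 3K on the log2 scale, and the growth was -0.48 (SE 0.06, adjusted p = 3.2e-05). It lay at -0.35 from day 12 to day 19 (adjusted p = 0.0046).

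Fdft1, which commits the pathway to sterols, showed the step in the second interval most plainly. Its counts at day 6 were 2178, 2268, 2254, 2337 and 2211 in EV and 2105, 2185, 2146, 2249 and 2139 in 3K, and at day 19 they were 1357, 1369.7, 1425, 1503 and 1428 in EV and 970.2, 964, 976, 1199.6 and 979 in 3K. Its effect was -0.06 at day 6, -0.04 at day 12 and -0.48 at day 19 (growth -0.43 (SE 0.06, adjusted p = 0.0001)). Acat2, a thiolase that makes acetoacetyl-CoA, was at 457, 446, 463, 495 and 466 in EV and 327, 293, 342, 365 and 314 in 3K at day 19, with a growth of -0.47 (SE 0.07, adjusted p = 8.6e-05). The smallest change among the 11 was that of Insig1, at -0.24 (SE 0.06, adjusted p = 0.04).

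The other lipid lists had fewer calls in the growth, a difference that was not tested. Of 26 genes that make or desaturate fatty acids 1 grew downward, the desaturase Fads1 (-0.25 (SE 0.06, adjusted p = 0.011)), and 0 upward, with a median of -0.10 and 18 of 26 negative, and none of 13 acyl-CoA synthetases passed (median -0.07). At day 19 alone, 13 of the 26 were called lower in 3K, and 18 of the 27 cholesterol genes. Scd, the stearoyl-CoA desaturase that puts a double bond into saturated fatty acids, was at 2113, 1952, 2021, 1980.2 and 2443 in EV and 1427, 1685, 1434, 1536 and 1545 in 3K at day 6. By day 19 they were 372, 262, 309, 289 and 499 in EV and 175, 155, 177, 141 and 178 in 3K. The groups did not overlap at either day, with effects of -0.46, -0.49 and -1.03 at days 6, 12 and 19. The growth of -0.57 (SE 0.16, adjusted p = 0.058) did not pass the threshold. Acsbg1, an acyl-CoA synthetase of astrocytes, kept an effect of -0.22, -0.26 and -0.28, with a growth of -0.06 (SE 0.05, adjusted p = 0.72).

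Promoters of genes that moved together were read from RefSeq (GRCr8, from 250 bases before to 50 after a start site). They matched 80 of the 95 upward and 78 of the 100 downward genes. The CRE, at which CREB acts (TGACGTCA, either strand), was in 6 of 94 promoters of upward genes (6.38%), in 3 of 90 of downward genes (3.33%), in 3.09% of those of genes tested and in 1.83% of all 33469. The sterol regulatory element (TCACNCCAC) was in 0 of 9 promoters of the downward cholesterol genes and in 1.12% of all. With letters this rare and 9 promoters, 0 matches carry no information about these genes. The CCAAT box (CCAAT), bound by NF-Y, was in 6 of those 9. It was in 39.4% of promoters of upward genes, 30% of downward genes, 37.3% of genes tested and 37.5% of all. The C/EBP-ATF response element (TGATGNAAN) was in 1 promoter of the upward genes, that of Chac1 (1.06%), in 3 of downward genes (3.33%), in 1.86% of those of genes tested and in 3.97% of all. A match to these letters is no evidence of binding, and a missing match is no evidence against it. The motifs can overlap, since an AP-1 match with C at its open base and GC after it is also a match to the antioxidant core. AP-1 (TGANTCA) was in 7.45% of promoters of upward genes, 3.33% of downward genes and 4.31% of genes tested, and the antioxidant response element core (TGACNNNGC) in 10.6%, 17.8% and 14.7%. The promoters below are shown for the genes of both directions described here, with the motif in capitals on whichever strand it was found. They are Chac1 (chr3:126795881-126796180, + strand, the C/EBP-ATF element), Btg2 (chr13:48087641-48087940, - strand, CRE), Plk2 (chr2:43702286-43702585, + strand, CRE), Hmgcs1 (chr2:53382054-53382353, + strand, CCAAT box) and Msmo1 (chr16:29746863-29747162, + strand, CCAAT box).
Chac1: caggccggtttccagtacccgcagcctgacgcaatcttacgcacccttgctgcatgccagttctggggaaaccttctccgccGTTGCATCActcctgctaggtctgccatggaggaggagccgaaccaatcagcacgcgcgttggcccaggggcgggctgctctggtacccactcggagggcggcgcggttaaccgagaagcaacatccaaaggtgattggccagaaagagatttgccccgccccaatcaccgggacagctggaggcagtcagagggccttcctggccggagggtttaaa
Btg2: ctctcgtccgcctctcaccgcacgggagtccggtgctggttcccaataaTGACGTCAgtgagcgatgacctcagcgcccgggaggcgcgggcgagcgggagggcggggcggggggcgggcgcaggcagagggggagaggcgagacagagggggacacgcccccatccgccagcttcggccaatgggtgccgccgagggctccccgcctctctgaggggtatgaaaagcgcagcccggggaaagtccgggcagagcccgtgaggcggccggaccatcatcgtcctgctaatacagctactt
Plk2: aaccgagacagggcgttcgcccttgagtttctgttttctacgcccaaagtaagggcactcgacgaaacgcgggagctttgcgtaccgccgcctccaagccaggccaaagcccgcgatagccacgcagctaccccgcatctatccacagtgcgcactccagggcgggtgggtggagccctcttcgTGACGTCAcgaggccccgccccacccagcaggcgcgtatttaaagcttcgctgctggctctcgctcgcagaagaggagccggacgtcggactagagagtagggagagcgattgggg
Hmgcs1: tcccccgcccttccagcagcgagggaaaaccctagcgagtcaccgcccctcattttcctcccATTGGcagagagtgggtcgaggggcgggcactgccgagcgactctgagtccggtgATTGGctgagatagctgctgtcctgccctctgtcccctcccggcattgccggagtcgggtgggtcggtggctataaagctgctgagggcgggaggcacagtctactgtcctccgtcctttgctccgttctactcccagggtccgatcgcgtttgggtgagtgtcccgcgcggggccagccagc
Msmo1: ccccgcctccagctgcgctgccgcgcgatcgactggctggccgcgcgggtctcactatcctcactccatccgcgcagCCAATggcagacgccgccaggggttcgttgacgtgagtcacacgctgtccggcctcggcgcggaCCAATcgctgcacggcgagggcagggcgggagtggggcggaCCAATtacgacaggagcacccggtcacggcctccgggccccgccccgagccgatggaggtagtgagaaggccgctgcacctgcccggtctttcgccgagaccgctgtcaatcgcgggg

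Neurons switch on immediate early and activity-regulated genes within minutes to hours of calcium entry or stress. Of 46 such genes tested, 8 grew upward and 0 downward, with a median growth of 0.27 and 34 of 46 positive. They were the transcription factors Atf3, Junb, Nr4a2 and Nfil3, the growth arrest genes Gadd45b and Btg2, and the kinases Sik1 and Plk2. The list median of the 3K effect was 0.11, 0.15 and 0.36 at days 6, 12 and 19. Over the alternatives 8 to 11 were called upward and 0 downward.

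Atf3, a stress-induced factor of injured neurons, was among the largest changes. Its counts were low at day 6, at 25.3, 14.8, 18.4, 18.7 and 14.4 in EV and 12.6, 21.0, 14.6, 27.9 and 12.4 in 3K. At day 19 they were 21.6, 17.3, 21.7, 22.1 and 21.7 in EV and 86.1, 106, 77.0, 62.9 and 77.7 in 3K. The groups were mixed at day 6, and at day 19 the lowest 3K library was well above the highest EV library. The change with time was 0.20 in EV, not called, and 2.20 in 3K, a growth of 2.00 (SE 0.37, adjusted p = 0.0021).

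Junb, an AP-1 subunit, rose in both treatments. It was at 82.7, 86.3, 68.0, 73.7 and 105 in EV and 67.7, 62.9, 87.4, 70.9 and 66.8 in 3K at day 6, and at 304, 428, 278, 427 and 284 in EV and 506, 682, 566, 625 and 543 in 3K at day 19. All 3K libraries were above all EV libraries at day 19, with a growth of 0.996 (SE 0.19, adjusted p = 0.0025). Nr4a2, an orphan nuclear receptor, had an effect of 0.36 at day 6 (adjusted p = 0.087), 0.29 at day 12 and 1.14 at day 19, at 149 ± 19.8 in EV and 328 ± 30.5 in 3K (SD, n = 5), with a growth of 0.78 (SE 0.13, adjusted p = 0.00035). Btg2 grew by 0.50 (SE 0.10, adjusted p = 0.0068) and Plk2, which phosphorylates αSyn, by 0.35 (SE 0.07, adjusted p = 0.0051), the smallest of the 8. Of 19 MAPK phosphatases and feedback inhibitors, which are often induced with these genes, none passed (median 0.11).

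Genes of the integrated stress response were split. ATF4, translated when eIF2α is phosphorylated, drives amino acid and tRNA synthetase genes and, under lasting stress, Ddit3 and Chac1. Of 37 genes of this list, 4 grew upward (Chac1, Ddit3, Atf4 and the tRNA synthetase Cars) and 1 downward (Ddit4, an inhibitor of mTORC1), with a median of 0.10. Chac1, which degrades glutathione, was at 205, 214, 204, 199 and 215 in EV and 161, 158, 173, 187 and 186 in 3K at day 6. At day 19 it was at 160.4, 165, 173, 176 and 147 in EV and 219, 223, 197, 235 and 198 in 3K. The order of the groups turned without overlap at either day, from all 3K libraries under EV to all above, with a growth of 0.64 (SE 0.12, adjusted p = 0.0019), with little of it before day 12 (day 12 effect -0.22).

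Ddit3, which encodes the factor CHOP, was at 122, 144, 161, 160.5 and 144 in EV and 198, 213, 196, 200.4 and 204 in 3K at day 19, with no overlap, and grew by 0.63 (SE 0.15, adjusted p = 0.018). Cars also turned, from all 3K libraries below EV at day 6 to 629.6, 676, 661, 669 and 652 in EV and 698, 730.1, 719.8, 683 and 689 in 3K at day 19, with a growth of 0.24 (SE 0.05, adjusted p = 0.014), but its effect at day 19 alone was not called (0.10, adjusted p = 0.11), and its growth was lost with the libraries of days 6 and 19 alone (adjusted p = 0.068). Psat1, of serine synthesis and also driven by ATF4, had effects of -0.29 and -0.35 at days 6 and 19 and a growth of -0.06 (SE 0.09, adjusted p = 0.87). None of 22 genes of ER chaperones and the unfolded protein response and none of 16 heat shock genes passed, with medians of 0.05 and 0.01.

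Among 29 genes of NRF2, glutathione and iron defence, Nqo1 and Tfrc grew upward and Fth1 downward. Nqo1, a quinone reductase and NRF2 target, was at 364, 377, 369, 298 and 394 in EV and 249, 345, 304, 351 and 324 in 3K at day 6, and at 301, 264, 285, 275 and 342 in EV and 551, 475, 519, 428 and 595 in 3K at day 19. The 3K libraries passed from mixed with EV to all above it, with a growth of 1.003 (SE 0.13, adjusted p = 3.3e-05). Fth1, the ferritin heavy chain that stores iron, had a growth of -0.32 (SE 0.06, adjusted p = 0.0024), and Tfrc, the transferrin receptor that imports it, of 0.39 (SE 0.10, adjusted p = 0.048), a call lost in 18 of 31 alternatives.

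Genes of reactive glia had the largest list median. Reactive astrocytes raise intermediate filaments, matrix proteins and cytokine receptors after injury. Of 18 tested, 6 grew upward (Tnc, Vim, S100a10, Il1r1, Cd44 and Stat3) and 0 downward, with a median of 0.65 and 16 of 18 positive, and the list median of the 3K effect passed from -0.10 at day 6 through 0.15 to 0.61 at day 19. Over the alternatives 4 to 7 were called. Of 26 general astrocyte markers, by contrast, 0 grew upward and 1, the aldolase Aldoc, grew downward, with a median of 0.03. Their list median of the 3K effect was already below 0, at -0.12, -0.17 and -0.09 at days 6, 12 and 19. At day 19 alone, 8 of the 26 were called lower in 3K and 1 higher. Gfap, the astrocyte filament found in both lists, had a growth of 0.69 with an adjusted p of 0.29.

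Tnc, a matrix glycoprotein of reactive and immature glia, was at 324, 162, 290.4, 266 and 339 in EV and 192, 296, 177, 247 and 229.9 in 3K at day 6. At day 19 it was at 103, 83.6, 91.0, 96.1 and 99.2 in EV and 274, 230.5, 269, 200.4 and 306 in 3K. The groups were mixed at day 6, and at day 19 the lowest 3K library was well above the highest EV library. EV fell by 1.49 and 3K was not called (0.17), with a growth of 1.67 (SE 0.25, adjusted p = 0.00014).

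Vim, an intermediate filament of astrocytes and progenitors, was at 563, 415, 503, 501 and 409.6 in EV and 406, 449.8, 448, 389 and 417 in 3K at day 6, and at 372, 304, 367, 356 and 408 in EV and 629.8, 696, 701, 396 and 693 in 3K at day 19. At day 19, 4 of the 5 3K libraries were above all EV libraries and replicate 4 lay among them, with a growth of 0.93 (SE 0.16, adjusted p = 0.00075). S100a10 grew by 0.58 (SE 0.10, adjusted p = 0.0017) and the interleukin-1 receptor Il1r1 by 2.04 (SE 0.39, adjusted p = 0.0032), from 21.6 ± 5.81 in EV to 92.2 ± 29.7 in 3K at day 19 (SD, n = 5). Cd44, a hyaluronan receptor, grew by 1.61 (SE 0.41, adjusted p = 0.034), a call that 11 of 31 alternatives lost (adjusted p up to 0.081). Summed astrocyte markers at day 19 ranged from 29230 to 34497 in EV and from 28619 to 33738 in 3K, and at day 6 from 10756 to 11648 and from 9588 to 11169.

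Overlapping lists held some of the same genes. Of 20 neuronal injury genes 4 grew upward (Atf3, Ddit3, Tnc and Cd44; median 0.21), and of 38 genes of the extracellular matrix and adhesion 4 grew upward (Tnc, Cd44, Fn1 and Sparc; median 0.16). Fibronectin, Fn1, grew by 1.19 (SE 0.29, adjusted p = 0.03), a call that 14 of 31 alternatives lost, and Sparc by 0.44 (SE 0.10, adjusted p = 0.01). Sparc lost its call with the libraries of days 6 and 19 alone (adjusted p = 0.057). Of 6 tested endothelial, mural and fibroblast markers 2 passed, Fn1 and the smooth muscle actin-binding gene Tagln (1.21 (SE 0.29, adjusted p = 0.024)), while the summed markers of these cells overlapped at day 19, at 236 to 284 in EV and 222 to 330.0 in 3K. Of 19 oligodendrocyte lineage genes 1 passed, Bcas1 (0.90 (SE 0.23, adjusted p = 0.035)), which was lost in 12 of 31 alternatives, and of 31 progenitor and cell cycle genes none (median -0.22). The part of cell numbers in these changes was not tested.

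**Figure D4:**
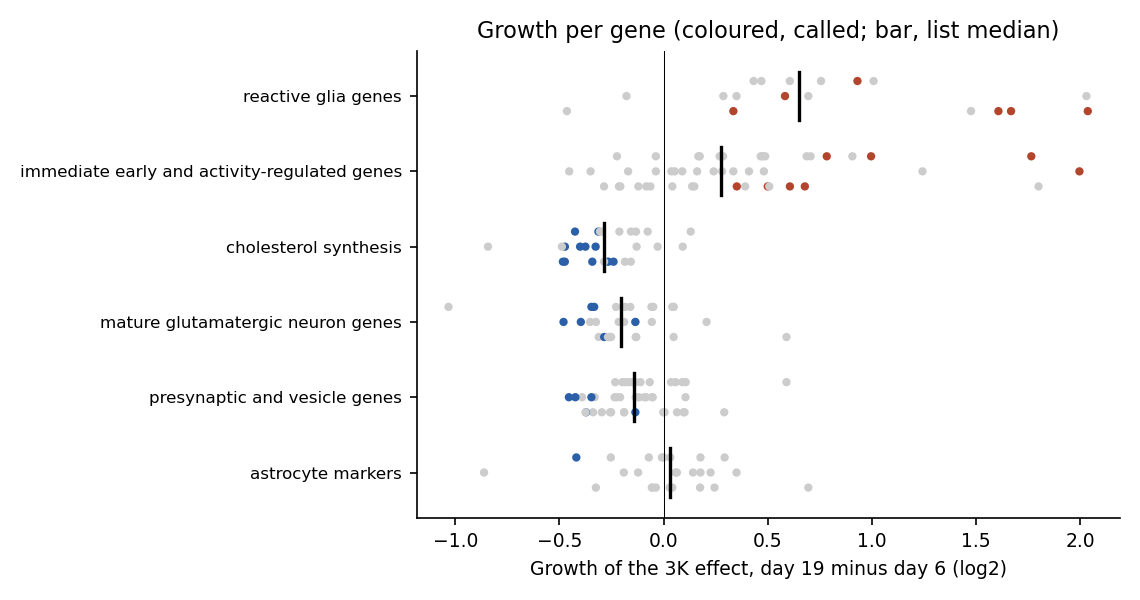
Each point is the growth of the 3K effect of 1 tested gene (x axis, log2, day 19 minus day 6) in 6 lists, spread vertically within a list for legibility, in red or blue where called upward or downward and in grey where not called, with a bar at the list median. Reactive glia genes have a median of 0.65, cholesterol synthesis genes lie almost wholly below 0 with a median of -0.29, and astrocyte markers centre at 0.03.

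Some genes of mature neurons and synapses grew downward. Such genes rise as cortical neurons form synapses. Of 30 genes of mature glutamatergic neurons, 6 grew downward (among them Chn1, Syn2, Ptk2b, Olfm1 and Slc17a7, which rose with time in both treatments) and 0 upward, with a median of -0.20 and 25 of 30 negative. Of 45 presynaptic and vesicle genes, 5 grew downward (among them Sv2b, Dnm1, Syn2 and Slc17a7; median -0.14), of 40 postsynaptic genes 2 (Akap5 and LRRTM1; median -0.12), and of 61 channel genes Kcnh3 and Cacna2d1 downward and Kcnf1 upward (median -0.11). Of these, LRRTM1 lost its call in 13 of 31 alternatives, Kcnh3 in 9, Kcnf1 in 20, Ptk2b in 5 and Chn1 in 2. None of 30 GABAergic genes passed (median -0.07). The count for mature glutamatergic genes was the least settled, at 1 to 7 over the alternatives, with 1 without EV day 19 replicate 2, 2 without EV day 19 replicate 4, without 3K day 6 replicate 1, without 3K day 19 replicates 1 or 5 and with the libraries of days 6 and 19 alone, and 3 without EV day 6 replicates 2 or 5 and with no filter. Without EV day 19 replicate 2 this list also had 1 gene upward. The count for presynaptic genes ranged from 3 to 7, with 1 upward in the same setting and with equal totals. Summed neuronal markers were lower in 3K at day 19, as given above, but 5 of the 8 markers are members of the mature glutamatergic list, so that the sum is no separate measure of it. The markers Gad1 and Gad2 had effects of 0.15 and 0.12 at day 19, neither called. The part of neuron number, or of the loss of viability that the study reported, was not tested.

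Akap5, which anchors protein kinase A and calcineurin at excitatory synapses, had the largest downward growth among the called genes of the synaptic lists. It was at 59.1, 47.1, 48.6, 44.9 and 44.1 in EV and 34.3, 49.8, 57.2, 45.1 and 53.4 in 3K at day 6. At day 19 its counts were 249.9, 289, 302, 278 and 281 in EV and 146, 150.0, 164, 141 and 173 in 3K. The groups were mixed at day 6, and at day 19 the highest 3K library was far below the lowest EV library. Akap5 rose with time in both treatments, and the growth was -0.82 (SE 0.17, adjusted p = 0.0078).

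Prrt2, a presynaptic protein that restrains sodium channels and vesicle release, was at 350.4, 305, 348, 337 and 273 in EV and 322, 327, 318, 337 and 379 in 3K at day 6, and at 659, 743, 581, 702 and 519 in EV and 348, 469, 372, 429 and 372 in 3K at day 19. All 3K libraries were under all EV libraries at day 19, and the growth was -0.75 (SE 0.12, adjusted p = 0.00039). The vesicle protein Sv2b grew by -0.45 (SE 0.07, adjusted p = 0.00018), to 3779 ± 186 in EV and 2956 ± 144 in 3K (SD, n = 5), and dynamin 1, Dnm1, which cuts endocytic vesicles free, by -0.42 (SE 0.09, adjusted p = 0.01). Slc17a7, the vesicular glutamate transporter, grew by -0.14 (SE 0.04, adjusted p = 0.048), the smallest change of the 100, at 7775 ± 226 in EV and 7205 ± 154 in 3K (SD, n = 5).

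Lzts1, a postsynaptic scaffold, changed after day 12. It was at 1272, 1371, 1260.1, 1389 and 1346 in EV and 823, 994, 842, 948 and 934 in 3K at day 19, with no overlap. Its effect was -0.01 at day 6, 0.01 at day 12 and -0.55 at day 19, with a growth of -0.54 (SE 0.07, adjusted p = 3.2e-05), and a change of -0.56 from day 12 to day 19 (adjusted p = 9e-05). The small GTPase gene Mras, in which every 3K library was below every EV library from day 12 on, grew by -0.38 (SE 0.05, adjusted p = 8.8e-05). Klhl2, an adaptor of a ubiquitin ligase, had effects of 0.16, -0.12 and -0.24 at days 6, 12 and 19. Only that at day 19 was called (adjusted p = 0.071, 0.25 and 5.8e-05). Its change from day 6 to day 12 was not called (adjusted p = 0.13). Every 3K library of Klhl2 was above EV at day 6 and below it at days 12 and 19, with a growth of -0.41 (SE 0.05, adjusted p = 3.2e-05).

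**Figure D5:**
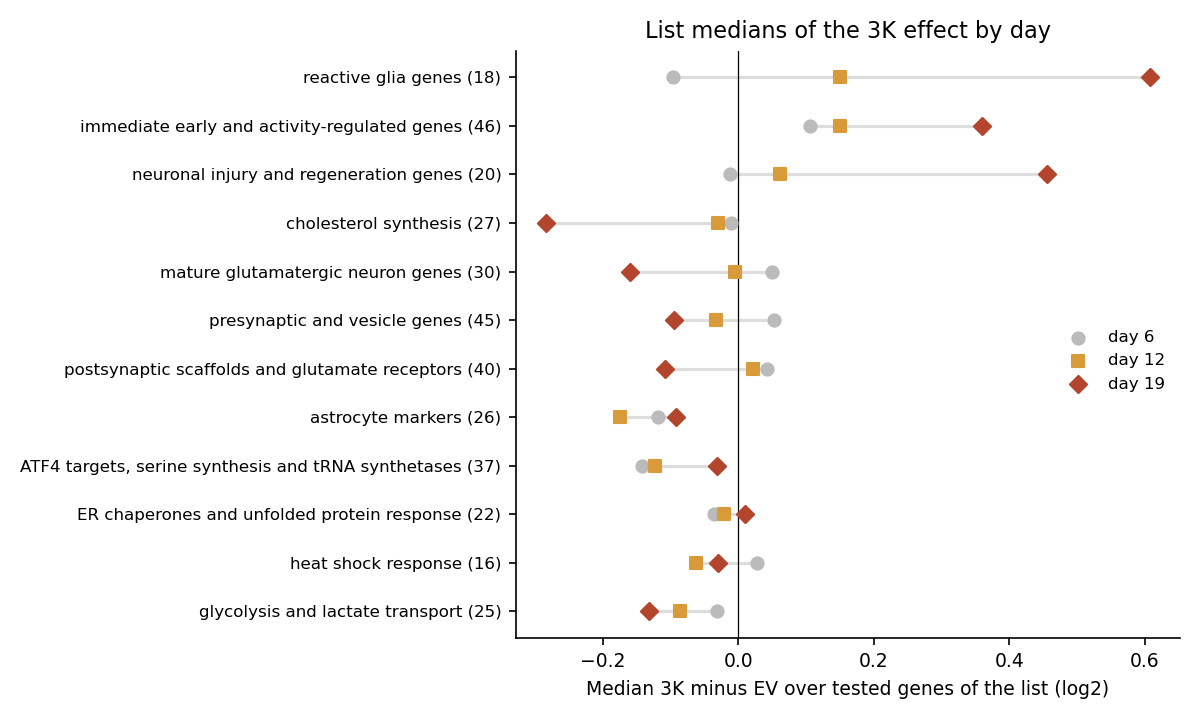
The median 3K effect (x axis, log2 difference 3K minus EV) over the tested genes of 12 lists is plotted at day 6 (grey circles), day 12 (orange squares) and day 19 (red diamonds), with the number of genes tested beside each list. Reactive glia genes reach 0.61 and cholesterol synthesis genes -0.28 at day 19, with day 12 close to day 6 for cholesterol synthesis.

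Glycolytic genes, which supply pyruvate and lactate, grew downward in part. Of 25 tested, 4 grew downward (Pfkp, Aldoc, Ldha and Gpi) and 1 upward (Pfkfb3, which makes an activator of glycolysis), with a median of -0.13 and 20 negative. Ldha, lactate dehydrogenase A, was at 5560.1, 5879, 5609.9, 5698 and 5820.0 in EV and 5564, 5574, 5837, 5687 and 5485 in 3K at day 6. By day 19 the counts were 8193, 8532, 8324, 8558 and 8293 in EV and 6722, 6983, 6770.4, 7458 and 6664 in 3K. The groups were mixed at day 6 and apart at day 19, with 3K below, and the growth of -0.26 (SE 0.04, adjusted p = 0.00035) was a small change with a small error. Pfkp, a phosphofructokinase, rose 3.09 in EV and 2.59 in 3K (growth -0.49 (SE 0.09, adjusted p = 0.0014)), and Aldoc, an aldolase of astrocytes, 1.82 and 1.40 (growth -0.42 (SE 0.08, adjusted p = 0.0037)).

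Other upward genes were in none of the lists. Among them were the tetraspanin Cd9 (1.64 (SE 0.28, adjusted p = 0.00088)), the orphan receptor Gpr176 (1.05 (SE 0.23, adjusted p = 0.011)) and the lysosomal membrane gene Tmbim1 (0.98 (SE 0.17, adjusted p = 0.00088)). Wls, which carries Wnt proteins to the cell surface, grew by 0.59 (SE 0.08, adjusted p = 3.2e-05), near the median of the upward genes. Id3, an inhibitor of helix-loop-helix factors, fell in both treatments, to 22.9 ± 11.1 in EV and 62.4 ± 22.3 in 3K (SD, n = 5), with a growth of 1.51 (SE 0.36, adjusted p = 0.024). It lost its call without EV day 6 replicate 5, without EV day 19 replicates 2 or 4, without 3K day 19 replicate 1 and with the libraries of days 6 and 19 alone, with adjusted p up to 0.093. The chemokine Cxcl12 (1.14 (SE 0.30, adjusted p = 0.044)) lost its call in 19 of 31 alternatives. Flnc, filamin C, had the largest growth of the called genes on this scale, 3.36 (SE 0.85, adjusted p = 0.033), from counts of 4.26 ± 4.24 in EV and 25.7 ± 7.47 in 3K at day 19 (SD, n = 5) and near 0 at day 6, and lost its call in 15 of 29. The mean count of Flnc was at most 4.54 in every other group, so that it met the filter chiefly through 3K day 19, where it was high.

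Of 33 neurotrophic and secreted peptide genes, Grp grew downward and the angiogenic factor Vegfa upward (0.36 (SE 0.09, adjusted p = 0.039)), a call lost in 17 of 31 alternatives, with a list median of -0.04. Grp, gastrin-releasing peptide, was at 43.9, 34.9, 32.4, 28.7 and 37.4 in EV and 36.1, 36.7, 38.5, 48.3 and 33.4 in 3K at day 6. At day 19 it was at 161, 215, 171, 211 and 149 in EV and 102, 118, 94.1, 92.4 and 73.5 in 3K. The groups were mixed at day 6, and at day 19 the highest 3K library was under the lowest EV library, with a growth of -1.03 (SE 0.18, adjusted p = 0.0011). The semaphorin Sema4a (-0.69 (SE 0.15, adjusted p = 0.012)), the synaptic adhesion gene Slitrk3 (-0.67 (SE 0.15, adjusted p = 0.01)), the microtubule-binding gene Nav3 (-0.67 (SE 0.13, adjusted p = 0.0025)) and the ubiquitin ligase Neurl1 (-0.60 (SE 0.13, adjusted p = 0.013)) were also among the 10 largest downward changes of called genes with a mean of at least 50, Neurl1 losing its call with the libraries of days 6 and 19 alone (adjusted p = 0.079). RGD1563354, with at most 22.7 counts in any library of these groups, had the largest downward value of the called genes (-2.30 (SE 0.50, adjusted p = 0.011)), a call lost with the libraries of days 6 and 19 alone (adjusted p = 0.056). It met the filter chiefly through EV day 19, where its mean was 18.6, against at most 8.72 in every other group.

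Of 10 genes that the study set first among those differing at all days, chosen on these samples, 5 grew upward (Lpcat1, Rnf145, Rgs4, Snn and Fam102b) and 5 did not pass. Snn, stannin, grew by 0.50 (SE 0.08, adjusted p = 0.00014) and Fam102b by 0.70 (SE 0.18, adjusted p = 0.032), the latter lost in 12 of 31 alternatives. Pcdh8, an activity-regulated protocadherin, had a growth of 0.24 (SE 0.07, adjusted p = 0.1), Rgcc, a cell cycle regulator, of -0.23 (SE 0.10, adjusted p = 0.29), and Scd, Acsbg1 and Psat1 are given above. Sncb, β-synuclein, had a growth of -0.09 (SE 0.07, adjusted p = 0.68). Of 18 RGS and G-protein regulators, Rgs4 grew upward and Rgs14 downward (-0.63 (SE 0.15, adjusted p = 0.026)), of 28 immature neuron and axon growth genes Stmn1 grew upward (0.20 (SE 0.05, adjusted p = 0.027)), and of 35 lysosome and Parkinson disease genes Ctsb, the protease cathepsin B, grew upward (0.17 (SE 0.05, adjusted p = 0.047)) and the proton pump subunit Atp6v0d1 downward (-0.20 (SE 0.05, adjusted p = 0.017)). The calls of Rgs14 and Stmn1 were each lost in 7 of 31 alternatives, that of Ctsb in 18, and that of Atp6v0d1 with the libraries of days 6 and 19 alone (adjusted p = 0.081). None of 18 interferon and antigen presentation genes and neither tested microglial list gene passed. Of 12 mitochondrially encoded genes tested none passed (median 0.06). Their share of reads at day 19 was 3.94% to 4.56% in EV and 4.50% to 5.14% in 3K, and with it as a covariate 98 genes grew upward and 102 downward. In all, 65 of the 195 genes were in at least 1 of the 31 lists.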

How the data were processed

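Libraries were made from amplified cDNA (SMART-Seq v4 and Nextera XT) and sequenced in paired ends. Per the study's methods, reads were aligned with STAR 2.5.2b and RSEM 1.2.31 quantified them against Rnor_6.0 plus the vector sequence. The signal values deposited by the authors are RSEM gene counts that DESeq2 size factors scale library by library. All values (100.0%) were whole reads over 1 factor per library (tolerance 0.01 of a read), from which the reads were recovered. Reads were not counted by molecule, and the depth limits the detection of small changes in genes with few reads.

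limma 3.58.1 (R 4.3.3) was fitted to log2(normalized count + 1) with 6 group means over 30 libraries and empirical Bayes moderation with a trend. The pseudocount of 1 understates changes of low genes. Tests were two-sided and adjusted by Benjamini-Hochberg over 12911 genes, at a threshold of 0.05, and every adjusted p in the text is from limma unless another tool is named. Genes and 31 lists (853 genes, 16 unmatched) were chosen with earlier results of these data known. Named genes were the 10 largest called in each direction with a mean of at least 50, the 10 smallest adjusted p, up to 3 called per list, genes called at days 6 and 19, up to 5 per direction with opposite effects at days 6 and 19, and 10 genes that the study names. Names outside this rule, such as Il1r1, Btg2, Plk2, Lcat, Flna and Nptxr, were chosen after their values were seen. Some genes are not reported here. Alternatives were edgeR 4.0.16 and DESeq2 1.42.0 on recovered reads, pseudocounts of 0.5 and 5, no filter, a minimum of 50, equal totals, equal upper quartiles, days 6 and 19 alone, a replicate block, the mitochondrial share as a covariate, and each library left out. The fit was tested on simulated data. Genes with near-identical copies and overlapping genes may share reads. Python 3.11.15, pandas 2.3.3 and matplotlib 3.10.9 served for tables and plots.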

Additional observations from a re-analysis of the deposited data

Results flagged for a closer look

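The 3K effect differed between days 19 and 6 in 195 genes and between days 19 and 12 in 70 genes by limma's test of the difference itself. Reads of the αSyn 3K vector, which were in no test, had a mean normalized count of 4203 in 3K at day 6 and 24755 at day 19, above the 135 and 211 in EV.

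In 304 groups of 5 libraries (76 named genes in 4 groups), 19 held a library whose gap to the others exceeded Dixon's limit on the log2 scale, where chance gives about 1 in 20 groups. In EV day 19 replicate 2, the normalized count was low for Atf3 (17.3) and Cd9 (15.5) and high for Neurl1 (1657). In 3K day 19 replicate 4 it was high for Fdft1 (1199.6) and Hmgcs1 (4379) and low for Vim (396) and Wls (870). In 3K day 6 replicate 2 it was low for Dnm1 (957), Fam102b (113) and Nav3 (310.0) and high for Flnc (4.37) and Id3 (174). In 3K day 19 replicate 2 it was low for Aldoc (3078) and Bcas1 (159). Single libraries stood out for Cd44 (9.03, 3K day 6 replicate 1, low), Nqo1 (298, EV day 6 replicate 4, low), RGD1563354 (10.8, EV day 19 replicate 1, low), Rgs4 (1544, EV day 6 replicate 3, high) and Tagln (14.4, EV day 6 replicate 1, low).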

How the results depend on the processing

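The 195 genes of the growth numbered 104 with the libraries of days 6 and 19 alone (55 upward, 49 downward), for which fewer libraries estimate the spread. They numbered 138 to 280 with single libraries left out (70 to 122 upward and 68 to 158 downward), lowest without EV day 19 replicate 2 and highest without 3K day 19 replicate 4, which alone moved the downward count beyond 1.5 times. Other alternatives gave 143 to 277, DESeq2 the most with 129 upward and 148 downward. Of 71 named genes called, none changed direction under any alternative that gave a value (63 had one with DESeq2 and 67 with a minimum of 50), 49 were also called with the libraries of days 6 and 19 alone, and 52 without EV day 19 replicate 2. The 70 genes of the change from day 12 to day 19 became 107 with DESeq2 and 29 with no filter, and 35 to 110 with single libraries left out. The 0 genes of the change from day 6 to day 12 became 4 with DESeq2. At day 6, the 29 genes became 53 with DESeq2 and 16 to 37 with single libraries left out (17 without EV day 6 replicate 1 or 3K day 6 replicate 5, 16 without 3K day 6 replicate 1), and at day 12 the 56 became 95 with DESeq2. The cause was not tested. Replicate numbers are shared between groups, but not every same-numbered pair deviated together (4 of 75 correlations above 0.1, median 0.01, 11 libraries closest to their own number). Of these 4, 3 were between EV and 3K at day 19 (0.145, 0.161 and 0.192 for replicates 2, 4 and 5). With the replicate block the growth had 209 genes (179 shared with the 195), the change from day 6 to day 12 had 1, and that from day 12 to day 19 had 53.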

Other observations

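Several called genes in none of the 31 lists had related functions. They were put together after their values were seen, so that neither group was tested. Flna, filamin A, which crosslinks actin, grew by 0.85 (SE 0.19, adjusted p = 0.013), at 364 ± 71.5 in EV and 565 ± 119.8 in 3K at day 19 (SD, n = 5). Gelsolin, Gsn, which severs actin filaments, grew by 0.61 (SE 0.16, adjusted p = 0.048), the tropomyosin Tpm4 by 0.42 (SE 0.09, adjusted p = 0.013) and the calponin Cnn3 by 0.36 (SE 0.06, adjusted p = 0.00049).

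Among downward genes, Tsc2, which restrains mTORC1, grew by -0.24 (SE 0.06, adjusted p = 0.033). The subunits Ppp2r1a and Ppp2r2c of protein phosphatase PP2A grew by -0.24 (SE 0.04, adjusted p = 0.0017) and -0.33 (SE 0.08, adjusted p = 0.017). Nptxr, a neuronal pentraxin receptor at excitatory synapses, grew by -0.55 (SE 0.08, adjusted p = 0.00019), at 7437 ± 752 in EV and 5133 ± 411 in 3K at day 19 (SD, n = 5).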
